A study of Schmidtea mediterranea with 171 samples.

Results

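Prohormone convertase 2, encoded by pc2, cuts neuropeptide precursors into active peptides and is used as a marker of the planarian nervous system. Planarian tissues are renewed from neoblasts, cycling stem cells that carry the Argonaute proteins piwi-1 and piwi-2. Flow sorting on DNA content separates the X1 gate, which holds dividing neoblasts, from the X2 gate, which holds their early progeny together with non-dividing stem cells. The transcripts described here were rarely read in single X1 cells and had levels that correlated with that of pc2 over those cells. They were chosen by a measured value: among 11425 transcripts with a read in 10 to 29 of the 96 single X1 cells (the candidates), the 100 with the highest Spearman correlation with pc2 (SmedASXL_009486) were taken, after transcripts that the study names by gene had been left out. The whole table held 67983 transcripts. The correlation with pc2 in X1 cells, and everything that follows from it in those cells, is therefore a description of the choice. The X2 cells and the pooled tubes took no part in it.

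All libraries came from heads of wild-type Schmidtea mediterranea of the asexual CIW4 strain, and the labels give no treatment. There were 72 single X2 cells, 96 single X1 cells, 1 tube of 200 X2 cells and 2 tubes of 200 X1 cells, 171 libraries in all. The labels do not say which animal or sorting run a cell came from. Each gate therefore counted as 1 sample, and neither gates nor cells could be tested against each other. Levels are counts per 1000000 assigned reads (CPM). Reads were not tagged with molecular identifiers, so intervals cover counting error only. Because a level in a tube is a mean over cells, fewer cells with a transcript and less of it per cell cannot be told apart there.

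Single X2 cells held 0.550 to 4.80 M assigned reads (M for 1000000, median 2.7 M) and single X1 cells 0.813 to 20.2 M (median 3.18 M). X2 cells had a read for a median of 1894 transcripts, and X1 cells for a median of 5040. Of all counts, a median of 40.3% in X2 cells and 17.4% in X1 cells was not assigned to a transcript. The number of cells in which a transcript is read can move with these differences. Counts of members called or read in X2 cells and tubes therefore stand beside the same share of the candidates, except in thinned tubes. piwi-1 had reads in 70 X2 cells and 88 X1 cells, and every single cell of either gate had piwi-2 reads. Mean levels over X2 and X1 cells were 510 and 408 CPM for piwi-1, and 1036 and 763 CPM for piwi-2. These 2 genes therefore did not separate the gates and are no check of them. No 2 libraries held identical counts.

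pc2 itself had a read in 32 of 72 X2 cells and in 65 of 96 X1 cells. At 5 CPM or more it was present in 3 X2 cells and 37 X1 cells, and at 100 CPM or more in 3 X2 cells and 19 X1 cells. Its highest levels were 9419 CPM in an X2 cell and 3120 CPM in an X1 cell. In the tubes pc2 was at 30.4 CPM in the X2 tube (95% exact Poisson interval 27.6 to 33.5), against 131 CPM (126 to 136) in X1 tube 1 and 24.9 CPM (21.9 to 28.0) in X1 tube 2. The X1 tubes lay farther from each other than the X2 tube lay from X1 tube 2.

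The 100 members had correlations with pc2 between 0.310 and 0.572 over the 96 X1 cells, with a median of 0.351, while the median over all candidates was 0.00883. All cells without a read tie in such a ranking, and the values serve only to order the transcripts. At the edge, the members at ranks 99 and 100, SmedASXL_076917 and SmedASXL_015882, had correlations of 0.3106 and 0.3105, and the next 2 transcripts in the ranking, SmedASXL_074786 and SmedASXL_073991, had 0.3102 and 0.3098. The edge is thus a cut through a continuous series. The deposited tables do not pair the members with gene names, so no role can be given for any of them.

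8 transcripts named by the study had correlations at or above that of the last member and were left out by the rule. In falling order they were ston-2 (0.469), a homologue of an endocytic adaptor of synaptic vesicles, ptprd-9 (0.415), a receptor tyrosine phosphatase, syt-11 (0.378), a synaptotagmin of membrane traffic, and vglut (0.377), the vesicular glutamate transporter. After these came elav3-11 (0.332), of a family of neuronal RNA-binding proteins, smad-4 (0.327), a transducer of TGF-beta signals, cux-1 (0.320), a homeobox transcription factor, and glrb (0.316), a glycine receptor subunit. The study had picked 7 of these 8, all but vglut, on these same cells.

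A member was read in a median of 17 X1 cells, against 16 for the candidates, so members were as rare as the transcripts they were drawn from. Their mean and peak levels over all X1 cells were higher. The mean level over X1 cells had a median of 10.5 CPM over members and 1.9 CPM over candidates, and the peak level over X1 cells had a median of 317 CPM over members and 63.1 CPM over candidates. A median of 36.0% of a member's summed level came from 1 cell, against 32.8% for the candidates. Detections at 1 to 3 reads made up 39.0% of the 1809 member detections in X1 cells and 39.6% of candidate detections.

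Of the 10 members that followed pc2 most closely, SmedASXL_002557 had the highest correlation, 0.572. It was read in 13 X1 cells, all of which also had pc2 reads, and ran from 0 (also the median) to 94.1 CPM. The second, SmedASXL_000876, was read in 20 X1 cells, 19 of them with pc2, and reached 300 CPM. SmedASXL_001487 was read in 24 X1 cells, 23 with pc2, and reached 272 CPM. Each was thus at 0 in most X1 cells and read almost wholly within the pc2-positive ones, which the choice favours. Of the X1 cells with a read of a transcript, a median of 92.3% held pc2 over members and 71.4% over candidates.

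The fourth, SmedASXL_055012, was a weak transcript that was read in 21 X1 cells and never exceeded 16.4 CPM. SmedASXL_001927 reached the highest level of any member, 1875 CPM, in a single cell that carried 60.2% of its summed level. SmedASXL_018258 was read in 17 X1 cells with a highest level of 928 CPM, and SmedASXL_028927 in 21 cells with a highest level of 618 CPM. Members of like correlation therefore differed in level by 2 orders of magnitude. The remaining 3 of the 10, SmedASXL_011945, SmedASXL_019478 and SmedASXL_009089, were read in 16, 17 and 11 X1 cells and reached 382, 280 and 339 CPM.

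The members overlapped in the cells that held them, which their choice on 1 gene over the same cells favours, but did not form a fixed set. Pairs of candidates were not computed for comparison. Over the 4950 pairs of members, the median share of cells in common (cells with both over cells with either) was 0.214, and the median Pearson correlation of log2(CPM + 1) was 0.29. In 4 pairs the correlation exceeded 0.9. The closest pair, SmedASXL_015829 and SmedASXL_015831, had a correlation of 0.981 and shared 17 cells, and SmedASXL_071599 with SmedASXL_071596 had 0.927 and shared 25 cells. The identifiers within each of these 2 pairs are nearly adjacent, and whether the pairs are pieces or copies of 1 gene was not tested.

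X1 cells differed widely in how many members they held. The number of members with a read ran from 0 to 69 per X1 cell with a median of 12.0. 17 X1 cells held at least 30 members, 10 held at least 50, and 3 held none. The number of members read followed pc2 with a Spearman correlation of 0.76 over the 96 cells, as the choice requires. It had a correlation of -0.41 with piwi-1, -0.21 with piwi-2, 0.23 with the number of transcripts read and -0.11 with assigned reads.

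**Figure D1:**
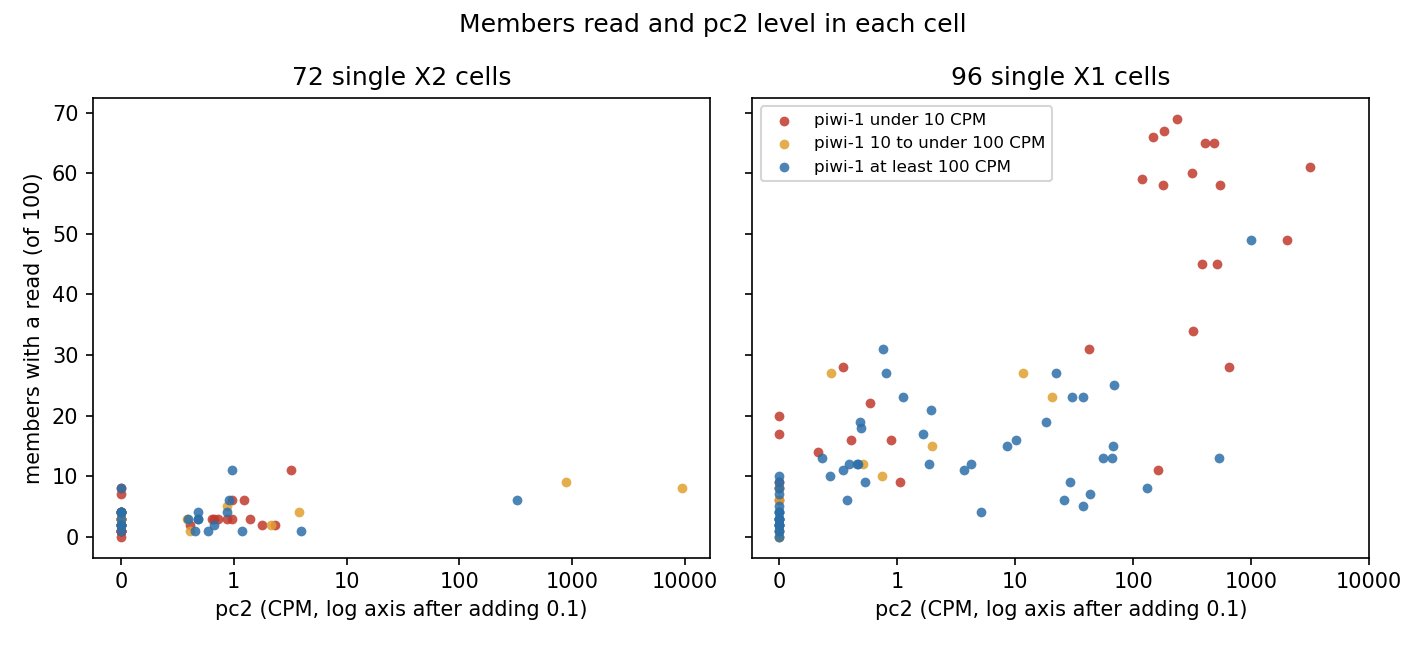
Number of the 100 members with a read against the pc2 level (CPM, log axis after adding 0.1) in each of 72 single X2 cells (left) and 96 single X1 cells (right), coloured by piwi-1 level. The X1 cells with 50 members or more all lie above 100 CPM pc2, while no X2 cell exceeds 11 members.

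The cell with the most members, X1 cell 4, held 69 members at a summed level of 6126 CPM, with pc2 at 237 CPM, no piwi-1 read and piwi-2 at 149 CPM. X1 cell 41 held 67 members, with piwi-1 at 3.16 CPM and piwi-2 at 131 CPM. X1 cell 24 held 60 members at the highest summed level, 13684 CPM or 1.4% of its assigned reads, and was the highest cell of 16 members. All 10 cells with at least 50 members had piwi-1 below 10 CPM and pc2 at 100 CPM or more. Of the 17 cells with at least 30 members, 15 had piwi-1 below 10 CPM, and X1 cells 44 and 52 did not. X1 cell 44 held 49 members with piwi-1 at 379 CPM, piwi-2 at 9.42 CPM and pc2 at 995 CPM. X1 cell 52 held 31 members with piwi-1 at 1270 CPM, piwi-2 at 1493 CPM and pc2 at only 0.661 CPM.

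A high pc2 level did not always come with many members. Of the 19 X1 cells with pc2 at 100 CPM or more, 4 held fewer than 30 members. These were X1 cell 7 with 28 members at 649 CPM pc2, cell 11 with 13 at 533 CPM, cell 36 with 11 at 163 CPM, and cell 84 with 8 at 131 CPM. Between 1685 and 4828 transcripts were read in these 4 cells. piwi-1 was at 638 CPM in cell 11 and 451 CPM in cell 84, at 4.50 CPM in cell 36, and not read in cell 7.

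Grouped by piwi-1 level, X1 cells under 10 CPM held a median of 32.5 members (range 6 to 69, 28 cells). X1 cells between 10 and 100 CPM held a median of 9.00 (0 to 27, 12 cells), and those at 100 CPM or more a median of 10.0 (0 to 49, 56 cells). The ranges overlapped, and 13 of the 28 cells of low piwi-1 held fewer than 30 members. Such ranges are cuts through a continuous level, although only 2 X1 cells lay within 2-fold of 10 CPM and 11 within 2-fold of 100 CPM. The median number of transcripts read was 4544, 4249 and 5422 over the same ranges, low to high, so the cells of lowest piwi-1 did not have the most transcripts.

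**Figure D2:**
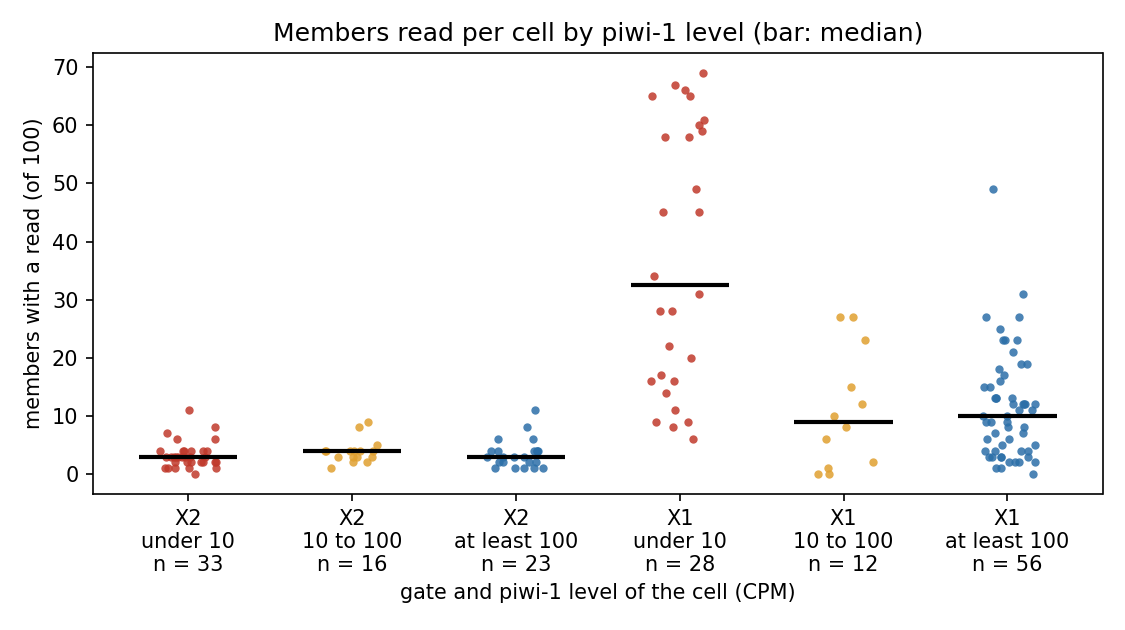
Number of the 100 members with a read in each cell, by gate and piwi-1 level in CPM; points are cells and bars are medians. X2 cells have medians of 3.00 to 4.00 in every range, whereas X1 cells under 10 CPM piwi-1 have a median of 32.5 and a range of 6 to 69.

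The 28 X1 cells under 10 CPM piwi-1 carried 85.5% of the summed member level of all X1 cells and 42.9% of the summed candidate level. They held the highest cell of 82 of the 100 members and of 45.7% of the candidates. The members were chosen on these cells, so both are descriptions. Detections at 1 to 3 reads were 26.3% of the member detections in these cells, 65.6% between 10 and 100 CPM piwi-1 and 54.2% at 100 CPM or more. With every cell thinned to 100000 reads, the medians were 22.0, 2.5 and 3.00 members over the ranges from low to high. Members made up 3.14%, 0.461% and 0.448% of the candidate detections in the thinned cells.

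Low piwi-1 alone did not mark the cells with many members. Of the 28 cells, 16 had pc2 at 100 CPM or more and held a median of 58.5 members (11 to 69), and 12 had less pc2 and held a median of 16.0 (6 to 31). The members were chosen on pc2, so this order is built in. Of the 19 X1 cells with pc2 at 100 CPM or more, 15 held at least 30 members. Only 3 X1 cells had such pc2 with piwi-1 at 10 CPM or more. They held a median of 13.0 members (8 to 49), and are too few to separate pc2 from piwi-1. piwi-2, which the rule did not use, was read in all 28 cells, with a median of 307 CPM and a range of 1.1 to 1920 CPM. Its median was 900 CPM in the cells at 100 CPM piwi-1 or more. The other stem cell genes also had lower medians in the cells under 10 CPM piwi-1: vasa-1, an RNA helicase of the germ line and neoblasts, had a median of 0.711 CPM, against 220 CPM. bruli, an RNA-binding protein of neoblasts, had a median of 1.4 CPM, against 133 CPM.

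The cells were not evenly spread over the labelled cell numbers, whose relation to plates or preparation is not given in the sources used here. X1 cells 1 to 24 held a median of 4.50 members, cells 25 to 48 a median of 22.5, cells 49 to 72 a median of 15.5, and cells 73 to 96 a median of 8.00 with a highest of 27. Within these 4 ranges the median correlation of the members with pc2 was 0.487, 0.422, 0.281 and 0.191, with 1 member not read in the third range and 25 not read in the last. pc2 had a read in 10, 21, 21 and 13 of the 24 cells, in the same order. The part of cell number in the member counts was not tested.

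The members' cells were compared with the genes that mark planarian cell types, whose transcripts were taken from the supplementary files of the study. Of 15033 other transcripts with a read in 10 or more X1 cells, 2.7% had a correlation of at least 0.3 with the number of members read, and the median was 0.03. Among 6 neural genes other than pc2, whose own value is fixed by the rule, 5 had a correlation above 0 and 2 reached 0.3: synapsin, a protein of synaptic vesicles, at 0.56, and vglut, added to the list after its values were seen, at 0.48. chat, the enzyme that makes acetylcholine, had 0.27, and egr-4, a zinc-finger transcription factor of the early brain, had 0.28. castor, a zinc-finger transcription factor, had 0.03, and nkx2.4, a homeobox gene, had -0.14.

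Synapsin was at 5 CPM or more in 11 of the 28 X1 cells under 10 CPM piwi-1, in 1 of 12 between 10 and 100 CPM, and in 4 of 56 at 100 CPM or more. chat was at 5 CPM or more in 10, 3 and 7 cells of the same ranges. The counts were 9, 1 and 7 cells for egr-4, and 4, 0 and 2 for vglut. They were 7, 2 and 9 for nkx2.4, and 6, 2 and 15 for castor, whose share was not highest in the cells of lowest piwi-1. Markers of different transmitter types appeared among the cells with many members. In X1 cell 13, which held 61 members, chat was at 1657 CPM and vglut was not read, whereas in X1 cell 51, with 34 members, vglut was at 956 CPM and chat was not read. X1 cells 4 and 55 held both, with chat at 240 and 76.8 CPM and vglut at 114 and 473 CPM.

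All 9 nu-genes with enough reads had a correlation of at least 0.3 with the number of members read, with a range of 0.35 to 0.61 and ston-2 the highest. The study picked the nu-genes as high in a cluster of these X1 cells, so the list is not independent evidence. Of 6 transcription factors that it also picked here, all had values above 0 and 3 reached 0.3, namely cux-1 (0.39), smad-4 (0.37) and znf-91 (0.32), a zinc-finger gene.

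**Figure D3:**
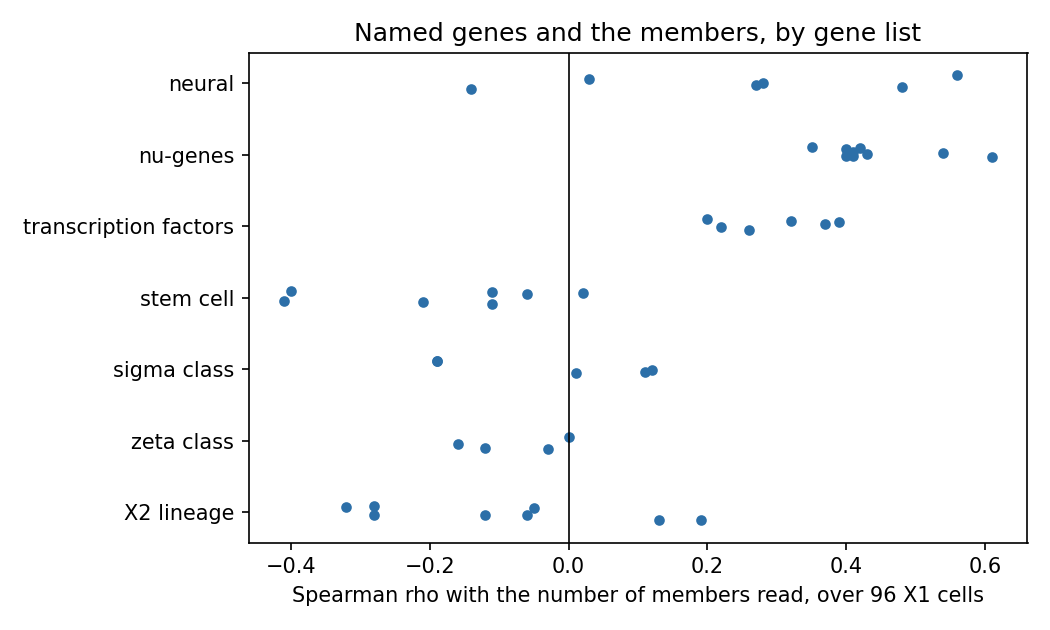
Spearman correlation between the level of each named gene and the number of members read, over 96 X1 cells, by gene list (pc2 left out); points are genes. The nu-genes lie at 0.35 to 0.61 and the stem cell genes at -0.41 to 0.02.

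Stem cell genes ran the other way or near 0. Of 7, 1 was above 0, and values ranged from -0.41 for piwi-1 and -0.40 for vasa-1 to 0.02 for piwi-3, a further Argonaute gene. Genes of the sigma class, a broad class of neoblasts, had values between -0.19 and 0.12, with 3 of 5 above 0. The zeta class, neoblasts that give rise to epidermis, had values between -0.16 and 0.00, with none of 4 above 0.00. Its marker zfp-1, a zinc-finger gene of epidermal progenitors, was at 5 CPM or more in 17 X1 cells, which held 0 to 27 members. Of 8 genes that the study picked as an X2 lineage, 2 were above 0 and the range was -0.32 to 0.19. pou2/3, a gene of the excretory protonephridia, had 0.15, and gata123 was read in 7 X1 cells, too few for a value.

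In X2 cells the members were seldom read. The median member had a read in 1.00 of 72 X2 cells (range 0 to 17), whereas the median candidate had a read in 3.00. No read in any X2 cell was found for 35 members, and for 13.5% of the candidates. For a single member, 0 of 72 cells allows a share of up to 4.17% of cells with a read (3 of 72), and the exact binomial interval reaches 4.99%. The share of X2 cells with a read was at most 0.5 times the share of X1 cells for 92 members and for 79.3% of candidates, and it was above the X1 share for 1 member and 4.14% of candidates. Detection in fewer X2 cells was thus common to most rare X1 transcripts and not particular to the members. Single X2 cells and the X2 tube did not match on most genes that the study picked as an X2 lineage. Smed-GT-1 had a mean of 25435 CPM over single X2 cells and 48.3 CPM in the X2 tube. Smed-SAS-1 had 5511 and 5.66 CPM. Smed-IMTP-1, Smed-GTPBP-6 and Smed-Mtrnr-2 were also far lower in the tube, whereas Smed-Ybp2-1 and Smed-Ybp2-2 were higher there. Whether the single cells represent the X2 gate was not tested.

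**Figure D4:**
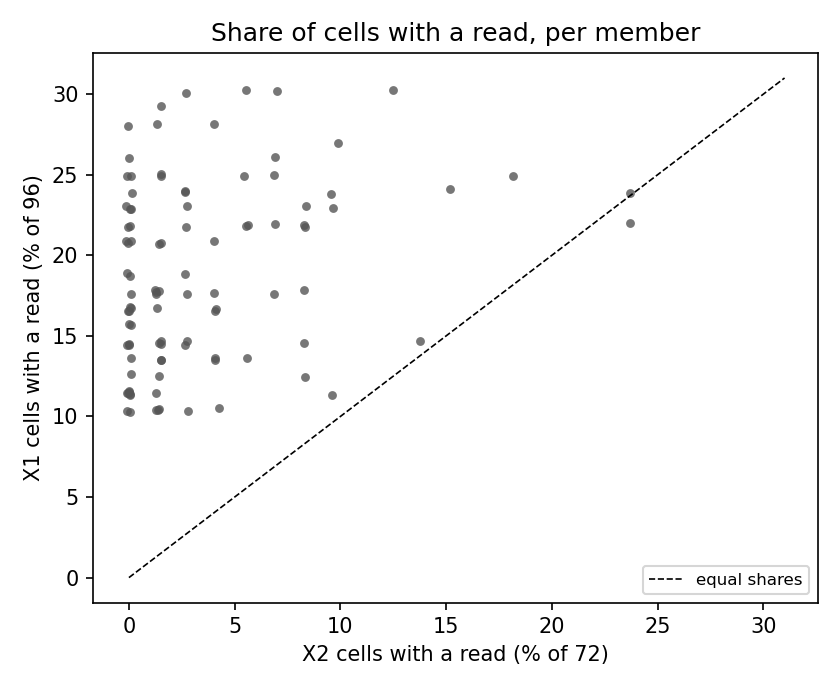
Share of 72 X2 cells with a read (horizontal axis) and share of 96 X1 cells with a read (vertical axis) for each of the 100 members; points are jittered by up to 0.15 percentage points, and the dashed line marks equal shares. All members but 1 lie above the line, on the side of the higher X1 share, and 35 lie at 0 on the X2 axis.

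Per cell, X2 cells held 0 to 11 members with a median of 3.00, against 0 to 69 with a median of 12.0 in X1 cells. Members made up 0.510% of the candidate detections in X2 cells, and 0.945% in X1 cells. With cells thinned to 100000 reads the values were 0.464% in X2 cells and 1.2% in X1 cells, with medians of 1.00 and 3.00 members per cell. In X1 cells with piwi-1 at 100 CPM or more, members made up 0.526% of candidate detections as deposited and 0.448% thinned.

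piwi-1 level did not separate X2 cells by members. Medians were 3.00, 4.00 and 3.00 members in the 33, 16 and 23 X2 cells under 10, between 10 and 100, and at or above 100 CPM piwi-1. Over the 72 X2 cells the number of members read had a correlation of 0.03 with piwi-1, 0.15 with pc2 and 0.27 with the number of transcripts read. The 3 X2 cells with pc2 at 100 CPM or more held 6 to 9 members. X2 cell 44, with pc2 at 9419 CPM and chat at 540 CPM, held 8 members, yet at a summed level of 8406 CPM. It was the shallowest X2 library, with 0.550 M assigned reads.

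Among the 65 members with a read in X2 cells, the median correlation with pc2 over the X2 cells was 0.0659, and 38 (58.5%) were above 0. The candidates had a median of -0.0275, and 43.7% were above 0. SmedASXL_028927, seventh in the ranking, had 0.427 with reads in 6 X2 cells and its highest level, 1083 CPM, in X2 cell 44. Of the other 9 leading members, 4 had no read in X2 cells, and none of the rest exceeded 0.193. At these detection rates a correlation rests on a few cells.

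3 members were read in the most X2 cells. SmedASXL_011086 and SmedASXL_009973 each had a read in 17 of 72 X2 cells (23.6%, 95% exact binomial interval 14.4 to 35.1), with highest levels of 4199 and 2652 CPM. They were read in 23 and 21 of 96 X1 cells, with highest levels of 1318 and 733 CPM. SmedASXL_017873 was read in 13 X2 cells (18.1%, 9.98 to 28.9) up to 771 CPM, and in 24 X1 cells up to 197 CPM. Their correlations with pc2 over X2 cells were 0.106, 0.041 and 0.092, so their levels did not follow pc2 closely there.

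In the tubes, reads were found for 87 members in the X2 tube, 100 in X1 tube 1 and 70 in X1 tube 2, while 94.3%, 94.3% and 91.4% of the candidates had a read in these tubes. In the same order, the tubes held 13.6, 18.4 and 10.7 M assigned reads. With each tube thinned to 1000000 reads, 60, 87 and 45 members had a read. Candidates were not counted in the thinned tubes, so a loss particular to the members cannot be read from these counts. The median level of the members was 1.5 CPM in the X2 tube, against 5.73 CPM in X1 tube 1 and 0.469 CPM in X1 tube 2. Over the candidates the medians were 1.2, 1.8 and 1.1 CPM in the same tubes. The summed level of the members was 305 CPM in the X2 tube, 789 CPM in X1 tube 1 and 169 CPM in X1 tube 2.

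**Figure D5:**
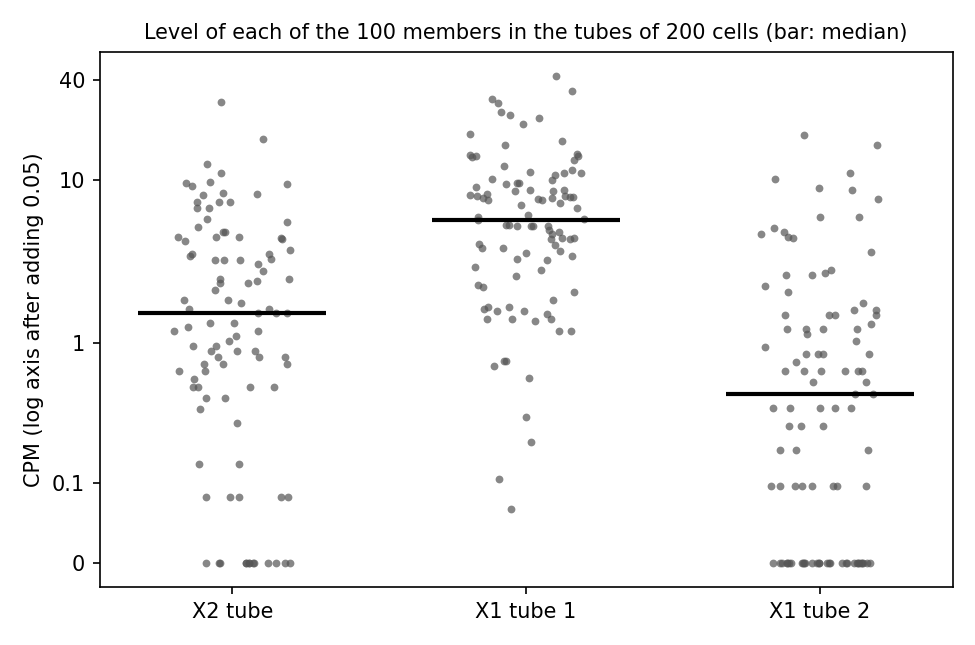
Level of each of the 100 members (CPM, log axis after adding 0.05) in the tubes of 200 cells; points are members and bars are medians. The medians are 1.5 CPM in the X2 tube, 5.73 CPM in X1 tube 1 and 0.469 CPM in X1 tube 2.

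The 2 tubes of X1 cells, replicates by their labels, disagreed on the members. At least 2-fold higher in tube 1 than in tube 2 were 72 members and 27.4% of candidates, and at least 2-fold higher in tube 2 were 2 members and 12.7% of candidates. A level under 3 reads in the lower tube was set to 3 reads (0.163 CPM in tube 1, 0.281 CPM in tube 2). Of the 6 neural genes other than pc2, 4 were also at least 2-fold higher in tube 1, among them synapsin, at 23.3 CPM in tube 1 with no read in tube 2, and chat, at 78.2 and 0.563 CPM. castor was at 12.1 and 9.10 CPM and nkx2.4 at 9.12 and 17.6 CPM in tubes 1 and 2, less than 2-fold apart. All 11 nu-genes were at least 2-fold higher in tube 1. piwi-1 was at 427 and 548 CPM, and piwi-2 at 873 and 931 CPM, in tubes 1 and 2. Of the 7 stem cell genes, 1 differed at least 2-fold: HP1-1 was higher in tube 2 (93.0 and 212 CPM). alpha-tubulin, which the study used as a ubiquitous control, was at 112 and 50.0 CPM. At least 2-fold higher in tube 1 were also 2 of 4 zeta class and 1 of 5 sigma class genes. In tube 2 it was 1 of 5 sigma class and 6 of 8 X2 lineage genes.

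Set against the mean of the X1 tubes, the X2 tube was at most 0.5-fold for 45 members and 21.3% of candidates, and at least 2-fold higher for 7 members and 9.44% of candidates, with a level under 3 reads in the X2 tube (0.221 CPM) set to 3 reads for the lower call. The count rests on X1 tube 1: against X1 tube 1 alone, 65 members and 25.7% of candidates were at most 0.5-fold in the X2 tube, and against X1 tube 2 alone, 14 members and 17.5% of candidates. A difference between the gates cannot be told apart from the difference between the X1 tubes.

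Among the leading members, SmedASXL_018258 was at 3.24 CPM in the X2 tube (95% exact Poisson interval 2.4 to 4.3), against 17.2 CPM (15.3 to 19.2) in X1 tube 1 and 0.375 CPM (0.102 to 0.960) in X1 tube 2. SmedASXL_028927 was at 0.294 CPM in the X2 tube (0.0802 to 0.753), against 11.5 CPM (10.0 to 13.2) in X1 tube 1 and no read in X1 tube 2. In both, the X2 tube lay below X1 tube 1 by more than counting error, and for SmedASXL_018258 it lay above X1 tube 2 by more than counting error.

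The highest members in the X2 tube were SmedASXL_009973 at 29.3 CPM, SmedASXL_013671 at 17.5 CPM and SmedASXL_015831 at 12.4 CPM. In X1 tubes 1 and 2 SmedASXL_009973 had 5.32 and 0.0938 CPM, SmedASXL_013671 had 8.63 and 5.06 CPM, and SmedASXL_015831 had 3.26 and 1.2 CPM. All 3 were higher in the X2 tube than in either X1 tube, a direction that their choice by the X2 tube favours. SmedASXL_013671 had no read in any of the 72 single X2 cells, and SmedASXL_015831 had reads in 2.

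The highest members by mean of the X1 tubes were SmedASXL_009795, SmedASXL_011086 and SmedASXL_006396. SmedASXL_009795 was at 4.41 CPM in the X2 tube, against 42.2 and 18.6 CPM in X1 tubes 1 and 2, and had no read in single X2 cells. SmedASXL_011086 was at 7.28 CPM in the X2 tube, against 24.4 and 16.2 CPM in the X1 tubes. SmedASXL_006396 was at 3.75 CPM in the X2 tube, against 34.3 and 5.91 CPM in the X1 tubes. These 3 were lower in the X2 tube than in both X1 tubes, a direction that their choice by the X1 tubes favours.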

How the data were processed

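Per the paper's methods, planarian heads were dissociated, sorted by Hoechst staining, amplified as full-length cDNA and sequenced. The submitters' processing notes name bcl2fastq 1.8.3, Bowtie2 2.2.4 and DESeq2. The authors deposited read counts per transcript, which are not normalized, and a second table of signal values. The paper's methods describe normalization with DESeq, and Winsorizing to keep extreme cells out of gene selection. They do not say whether the second table was Winsorized. Of the nonzero deposited signal values, 85.8% equalled the count over 1 size factor per cell within 1%. The counts were used throughout, and the size factors (median count over signal in each cell) served for 2 alternatives. An entry for unassigned reads (7.51% to 87.8% of a cell's counts, 6.14% to 11.3% of a tube's) was left out of all totals. Every column of values was mapped to a sample.

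CPM, Spearman correlations (ties at mean rank) and counts of detection were computed with Python 3.11.15, numpy 2.4.6, pandas 2.3.3 and scipy 1.17.1; ranking was tested on simulated data. The members and gene lists were chosen with earlier results of these data known. Of the gene names of the study, 51 were paired with a transcript: by its gene table or code, by correlation of listed values over 49 cells (17 names, r at least 0.99 and at least 0.1 above the next transcript), or by listed values equal within 0.001 (3 names, vglut, egr-1 and gata123, a criterion added after the values were seen), and 3 stayed unpaired. vglut was also added to the neural list then. Named members were the 10 of highest correlation, the 3 read in most X2 cells, the 3 highest in the X2 tube, the 3 highest by mean of the X1 tubes and those at the edge of the ranking; single cells were named after their values were seen. Thinning drew 100000 reads per cell without replacement. No test was run, since each gate is 1 sample.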

Additional observations from a re-analysis of the deposited data

How the results depend on the processing

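No paired analysis was possible because no result comes from a test and a cell number or tube number shared by the gates names no common source. Which transcripts are members depends on the cells. Of the 100, 94 stayed with the authors' size factors, 97 with unassigned reads in the total, 84 without the cell holding most members, 66 with Pearson correlation of log2(CPM + 1), 60 with cells thinned to 100000 reads, and 56 with candidates defined by at least 5 reads. Without X1 cells 1 to 24, 25 to 48, 49 to 72 or 73 to 96, 48, 31, 53 and 60 stayed.

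The median of 12.0 members per X1 cell became 5.00 at 5 reads or more, 3.00 at 5 CPM or more, 3.00 thinned and 5.00 of the 50 members of highest correlation. For X1 cells between the piwi-1 cuts the median of 9.00 became 2.00 at 5 reads, 1.5 at 5 CPM, 2.5 thinned and 2.00 of the 50 members, 1.5 with cuts at 5 and 50 CPM, 15.0 without cells 1 to 24 and 4.00 without cells 49 to 72. At or over the upper cut the median of 10.0 became 3.00 at 5 reads, 2.00 at 5 CPM, 3.00 thinned and 4.00 of the 50 members. Under the lower cut, 20.0 of the 50 members were read, and the median was highest there under every alternative run. All these runs counted members, or the first 50 of them, that had been chosen once on the full set of X1 cells. Members were not chosen again when cells were left out or thinned. The choice therefore favours this order, and the runs are no independent check of it. The median member in X2 cells moved to 0 at 5 CPM and thinned, and the median candidate to 1.00 at 5 reads, at 5 CPM and thinned.

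In tubes thinned to 1000000 reads, the median level became 0 in X1 tube 2 and 1.00 CPM in the X2 tube. There 45 members had a read in X1 tube 2, and 19 were at most 0.5-fold in the X2 tube, with no candidates counted. Of the 50 members, 42, 50 and 32 had a read in the X2 tube and X1 tubes 1 and 2. Among candidates the shares were 94.3%, 94.3% and 91.4%. At most 0.5-fold in the X2 tube were 23 of the 50 members and 21.3% of candidates. Leaving out 1 X1 tube gave 14 to 65 of the 100 members, and 17.5% to 25.7% of candidates. The cause of these moves was not tested, beyond the fewer reads or members that thinning, stricter detection and the 50 members entail. That vglut was left out, chosen after seeing the data, changed 1 member: 99 stayed with it kept.
Over all results and alternatives, 46 values stayed within 1.5 times the reported one and 37 did not.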
